A study of Mus musculus with 72 samples.

Results

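Otoa, Itgad, Klra2, Epyc, Tent5c, Ninj2, Ccdc163, Insc and Mpp4 are 9 genes less studied in the hypothalamus. They are 9 of the 21749 genes listed in all 10 count tables, and they were chosen by their change with fasting in the wild types of the E1 and E3 lines. Each was followed here in every line, genotype and feeding state. The samples are hypothalami of adult B6 mice from 5 lines, named E1 to E5, in which a conserved noncoding element tied to hibernation had been knocked out, and every line had its own wild types (WT) beside the knockouts (KO). Mice were either fed or had gone 72 h without food but with water, and crossing line, genotype and feeding state gave 20 groups and 72 libraries of total RNA. Every E3 group, both fasted E2 groups, fasted E4 KO and fasted E1 WT held 3 libraries, and the other groups 4. The labels used here do not state sex, exact age, how the lines were made or whether a line descends from a single founder.

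The 9 genes have unrelated known roles. Otoa encodes otoancorin, which anchors the acellular gels of the inner ear to the cells below them. Itgad encodes the integrin alpha D chain (CD11d), which pairs with the beta2 chain on macrophages and other leukocytes, and Klra2 encodes a lectin-like receptor of the Ly49 family found on myeloid cells. Epyc encodes epiphycan, a small leucine-rich proteoglycan of cartilage, and Tent5c encodes a noncanonical poly(A) polymerase known from plasma cells and erythroid cells. Ninj2 encodes ninjurin 2, a membrane adhesion protein induced after nerve injury. Insc encodes inscuteable, an adaptor that links the Par polarity complex to the machinery that orients the mitotic spindle. Mpp4 encodes a membrane-associated guanylate kinase scaffold of photoreceptor synapses, and Ccdc163 encodes a coiled-coil protein whose function is little known. Prolonged fasting raises glucocorticoids in mice, and the receptor for these hormones is a DNA-binding factor that acts on many target genes.

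RefSeq promoters of GRCm38.p6 (the mm10 assembly), from 250 bases before to 50 bases after a gene start, were matched for 8 of the 9 genes (all but Itgad), 10 promoters in all. Both strands were searched for AGAACA (letters bound by the glucocorticoid receptor), GTAAACA (a FoxO site), TGACGTCA (the CREB site), CACGTG (an E-box) and GAGGAAGT (a PU.1 core). The 3 windows with a match, of Mpp4, Ninj2 and Epyc, are shown. The response of Mpp4 differed between lines, and Ninj2 was lower in fasted than in fed libraries of every line. The level of Epyc followed markers of a neighbouring brain region in E3 and E4. Capitals mark the matched letters, and in Epyc they are the reverse complement of the FoxO letters. The windows lie at chr1:59163340-59163639 (minus strand, Mpp4), chr6:120093130-120093429 (plus, Ninj2) and chr10:97643818-97644117 (plus, Epyc), each written 5′ to 3′ along its gene.
Mpp4: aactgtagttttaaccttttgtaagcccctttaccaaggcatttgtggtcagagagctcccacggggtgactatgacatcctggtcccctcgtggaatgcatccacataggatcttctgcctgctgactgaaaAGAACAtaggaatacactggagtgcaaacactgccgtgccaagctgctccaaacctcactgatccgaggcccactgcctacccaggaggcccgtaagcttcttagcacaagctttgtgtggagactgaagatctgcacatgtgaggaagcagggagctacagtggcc
Ninj2: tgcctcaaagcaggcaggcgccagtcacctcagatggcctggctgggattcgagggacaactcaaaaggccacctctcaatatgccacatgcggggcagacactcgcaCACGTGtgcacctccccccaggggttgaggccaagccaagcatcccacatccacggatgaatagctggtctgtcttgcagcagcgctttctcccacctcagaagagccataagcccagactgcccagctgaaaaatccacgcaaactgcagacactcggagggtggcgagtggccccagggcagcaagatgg
Epyc: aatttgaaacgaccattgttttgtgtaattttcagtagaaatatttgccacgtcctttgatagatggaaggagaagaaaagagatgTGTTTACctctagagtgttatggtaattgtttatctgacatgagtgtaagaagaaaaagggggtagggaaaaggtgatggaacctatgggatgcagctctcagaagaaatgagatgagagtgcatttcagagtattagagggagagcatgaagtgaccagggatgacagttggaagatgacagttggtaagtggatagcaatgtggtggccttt
The match in Mpp4 starts at position -117 from the gene start, the E-box of Ninj2 at -142 and the FoxO letters of Epyc at -164. Of 32851 RefSeq promoters of the same length, 19% held the AGAACA letters, 7.15% the E-box, 3.65% the FoxO letters, 1.79% the CREB letters and 3.2% the PU.1 letters. These are matches of letters in a window and not measured binding sites.

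On the mm10 build, Otoa lies at chr7:121081650-121163097 on the plus strand, Itgad at chr7:128154376-128223816 (plus), Klra2 at chr6:131219223-131247362 (minus) and Epyc at chr10:97644068-97682454 (plus). Tent5c lies at chr3:100451628-100489324 (minus), Ninj2 at chr6:120093350-120200339 (plus), Ccdc163 at chr4:116708509-116751206 (plus), Insc at chr7:114743694-114850383 (plus) and Mpp4 at chr1:59120935-59163389 (minus). Exons of other genes overlap some of them. Tesk2 shares 405 exon bases with Ccdc163 on the same strand (16.1% of its exons), and the long noncoding gene Gm10754 shares 1041 with Epyc on the opposite strand (40.6%). On the opposite strand, G730003C15Rik shares 510 exon bases with Mpp4 (7.22%) and 4931431B13Rik shares 388 with Itgad (8.6%), and the pseudogene Gm17831 shares 330 with Itgad on the same strand (7.32%). The counting tool and its strand setting are not given in the sources used here, so reads from such stretches could have gone to either gene.

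Total counts a library ran from 14931889 to 19816134 in E1, 14911351 to 23619033 in E3, 23322124 to 39999368 in E2, 5517552 to 33981500 in E4 and 18614527 to 30330400 in E5. Fed and fasted libraries of E1, and likewise of E3, carry a common batch number in the labels, whereas in the other 3 lines the feeding states have separate batch numbers, so that state and batch cannot be told apart. Levels below are scaled CPM, the CPM over the 21749 shared genes adjusted by TMM factors for composition. E3 libraries had 77.9 to 154 scaled CPM of Y-linked Ddx3y and all others 0.317 or less, so line, sex and batch number coincide between E1 and E3. All 9 genes passed the count filter in every comparison. Per kb of exon, the median level over the 38 fed libraries was 17 scaled CPM for Ninj2, 3.97 for Insc, 1.19 for Ccdc163, 0.908 for Tent5c, 0.821 for Klra2, 0.579 for Mpp4, 0.526 for Epyc, 0.446 for Itgad and 0.16 for Otoa. Ninj2 and Insc had at least 25 counts in every library, whereas Epyc had as few as 1 and Ccdc163 as few as 3, which limits their precision. These lowest counts, and those of Klra2 (4), Otoa (5), Mpp4 (5) and Itgad (7), were in the first fasted E4 KO library, the one with 5517552 total counts.

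The wild types of E1 and E3 chose these genes, so their values there are a description and carry no test. Otoa was 1.05, 1.10, 1.45 and 1.12 scaled CPM in fed E1 WT and 6.21, 5.34 and 4.28 in fasted ones, and 0.529, 0.477 and 0.574 fed against 0.913, 0.917 and 1.37 fasted in E3 WT. Fed and fasted libraries did not overlap in either line, and the E3 levels were the lower of the 2 lines in both states. In the fit over both lines the log2 fold change of fasted over fed was 1.76 for Otoa, 1.69 for Itgad, 1.33 for Epyc and 1.21 for Klra2, against -1.70 for Tent5c, -1.30 for Ninj2, -1.22 for Ccdc163, -1.16 for Insc and -1.09 for Mpp4. Of the 14847 genes tested, 11% were called in that comparison, 1637 genes, but 30 of 15024 without 3 libraries that held transcripts of other tissue (the second and the third fed E1 WT and the first fasted E3 WT). The lines contributed unevenly: the log2 fold change of Itgad was 2.44 in E1 WT and 0.72 in E3 WT, and that of Tent5c was -1.06 and -2.33. In E3 WT, Itgad was 6.39, 2.10 and 1.85 scaled CPM after fasting and 2.54, 1.67 and 2.07 fed, with 1 fasted library well above the rest.

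**Figure D1:**
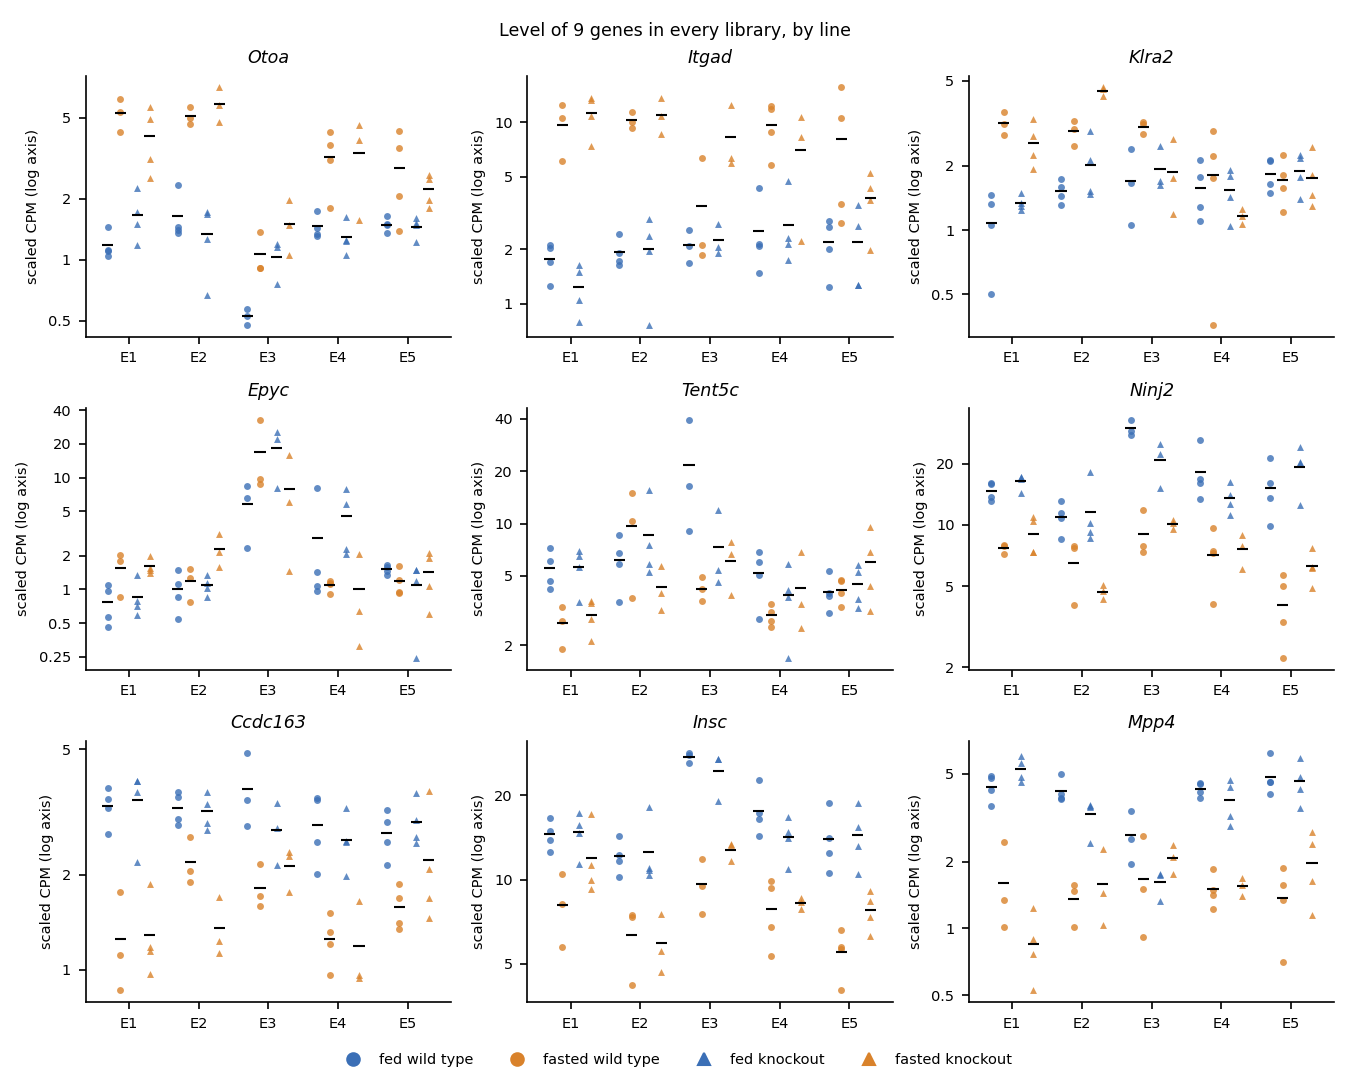
Scaled CPM (log axis) of the 9 genes in every library, by line, with circles for WT and triangles for KO and blue for fed and orange for fasted, and bars at group means. Ninj2 sits lower in fasted than in fed libraries in all 10 pairs of line and genotype, whereas fed and fasted libraries overlap in 8 of 10 pairs for Tent5c and in 6 of 10 for Epyc. Fed and fasted libraries of E2, E4 and E5 also differ in batch number.

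The knockouts of E1 and E3, which the choice of genes did not use, ask whether the same contrast holds in other mice of the same lines. Otoa and Itgad were higher after fasting, and Ninj2, Ccdc163, Insc and Mpp4 were lower, each past the test with the line as a covariate. That is 6 of 9 genes, against 20.1% of all 14956 genes tested (1481 higher, 1526 lower; median log2 fold change of all genes -0.01). The remaining 3, Klra2, Epyc and Tent5c, did not pass. All tests across genes used edgeR's quasi-likelihood test with Benjamini-Hochberg adjustment over every gene tested and a call at an adjusted p under 0.05. Nothing in the labels shows that libraries of a group came from separate mice beyond their numbers, so p-values measure only the spread between these samples.

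Among the genes that rose, Itgad moved most. It was 1.04, 0.79, 1.49 and 1.63 scaled CPM in fed E1 KO and 7.39, 13.6, 13.3 and 10.8 in fasted E1 KO. In E3 KO it was 2.04, 1.91 and 2.74 fed and 6.37, 12.4 and 5.98 fasted. Every fasted library lay above every fed one in both lines, and the log2 fold change was 2.58 (SE 0.27, adjusted p = 8.6e-05). In bulk tissue, more cells of a type and more RNA per cell cannot be told apart, here as for every result below. Microglia markers, counted because integrins of this class belong to myeloid cells, rose in 1 of 9 tested (Trem2, a microglial lipid receptor, log2 fold change 0.46), with summed levels of 160.5 to 177.1 scaled CPM in fed and 169.8 to 205.5 in fasted E1 KO. The markers of neutrophils and monocytes summed to at most 6.38 scaled CPM in any E1 or E3 library, and 0 of the 2 tested were called (median log2 fold change 0.40). Of 3 tested markers of perivascular macrophages, 1 was called higher (median log2 fold change -0.01). With each group centred on its mean, over 72 libraries, Pearson's r of Itgad was -0.469 with the microglia sum. It was -0.275 with the perivascular macrophage sum and -0.00485 with that of neutrophils and monocytes. Itgb2, the beta2 chain that Itgad pairs with, had a log2 fold change of 0.12 (SE 0.15, adjusted p = 0.611). Astrocyte markers were called higher in 2 of 6 (Gja1 at 0.29 and Aldoc at 0.57), with a median log2 fold change of 0.16. The marker counts of this paragraph stand beside the 20.1% of all genes called in this comparison. The astrocyte sum did not overlap between states: 1217 to 1360 scaled CPM fed and 1442 to 1743 fasted in E1 KO, and 1613 to 1815 fed and 1886 to 2074 fasted in E3 KO. How many of all genes separate likewise was not counted. Markers of thalamus and cortex also rose, 4 of 5 tested with a median log2 fold change of 1.74: their sum was 89.75 to 111.7 scaled CPM in fed and 182.9 to 774.2 in fasted E1 KO, and in E3 KO it was 193.2 to 701.5 fed and 333.1 to 734.6 fasted. The part of these cells in the result for Itgad or any other of the 9 genes was not tested.

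Otoa was 1.5, 1.73, 2.25 and 1.18 scaled CPM in fed E1 KO and 5.64, 3.15, 4.95 and 2.52 in fasted E1 KO. In E3 KO it was 1.20, 1.15 and 0.758 fed and 1.05, 1.48 and 1.98 fasted. The groups were apart in E1 KO and overlapped in E3 KO, and the log2 fold change over both was 1.0 (SE 0.24, adjusted p = 0.0106). Klra2 was 1.24, 1.33, 1.49 and 1.29 scaled CPM fed and 2.75, 1.93, 3.31 and 2.25 fasted in E1 KO, but 2.46, 1.71 and 1.63 fed and 2.66, 1.76 and 1.19 fasted in E3 KO. It separated in E1 KO and not in E3 KO, which left 0.49 (SE 0.23, adjusted p = 0.133) over both. Without the third fasted E3 KO library it passed, at 0.64 (adjusted p = 0.0318). Epyc was 0.715, 0.592, 1.34 and 0.787 scaled CPM fed and 2.0, 1.40, 1.48 and 1.55 fasted in E1 KO. In E3 KO it was 22.0, 25.3 and 7.99 fed and 15.9, 6.10 and 1.45 fasted, a wider range than all E1 libraries together. Its log2 fold change over both lines was -0.38 (SE 0.50, adjusted p = 0.627), opposite in sign to the wild types that chose it.

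Among the genes that fell, Ninj2 was the most regular. It was 17.1, 16.8, 14.3 and 17.2 scaled CPM in fed E1 KO and 7.34, 10.4, 7.34 and 11 in fasted E1 KO. In E3 KO it was 25.1, 15.1 and 22.4 fed and 10.5, 10.2 and 9.59 fasted. No fasted library reached a fed one in either line, and the log2 fold change was -0.95 (SE 0.12, adjusted p = 0.00028). Insc was 17.4, 15.7, 11.4 and 14.7 scaled CPM fed and 9.94, 17.2, 9.23 and 11.3 fasted in E1 KO, and 27.0, 19.1 and 26.9 fed and 13.4, 13.2 and 11.7 fasted in E3 KO. The second fasted E1 KO library, at 17.2, was the reason the E1 groups overlapped, and the E3 groups were apart; over both, the log2 fold change was -0.60 (SE 0.16, adjusted p = 0.0152). Leaving out 3 E3 KO libraries high in striatal transcripts (the first and second fed and the first fasted, a choice made after seeing the data) gave Insc -0.55 (adjusted p = 0.0538).

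Ccdc163 was 3.96, 3.65, 3.98 and 2.19 scaled CPM fed and 1.15, 1.87, 0.969 and 1.18 fasted in E1 KO. In E3 KO it was 2.81, 2.16 and 3.38 fed and 2.29, 2.36 and 1.76 fasted, so only the E1 groups were apart. The log2 fold change over both lines was -0.98 (SE 0.23, adjusted p = 0.00899). Tesk2, the testis-specific kinase gene whose exons overlap it, was at -0.15 (adjusted p = 0.515), and Mmachc, the neighbouring gene of vitamin B12 metabolism, at 0.05 (adjusted p = 0.764). By line, Tesk2 was called lower in E1 KO, at -0.41 (adjusted p = 0.0284), and was at 0.23 (adjusted p = 0.736) in E3 KO. The part of shared Tesk2 reads in the Ccdc163 result was not tested. Tent5c was 5.66, 6.51, 3.55 and 6.91 scaled CPM fed and 2.10, 3.56, 3.47 and 2.84 fasted in E1 KO, and 5.42, 4.61 and 12 fed and 3.90, 7.81 and 6.64 fasted in E3 KO. Fed and fasted overlapped in both lines, by a narrow margin in E1, and the log2 fold change was -0.64 (SE 0.24, adjusted p = 0.0749). It passed with DESeq2 (adjusted p = 0.0393), without the second fasted E3 KO library (adjusted p = 0.046), and without the first or the second fed E3 KO library (adjusted p = 0.0494 and 0.0342). Without the 3 E3 KO libraries high in striatal transcripts it was at -0.88 (adjusted p = 0.0104).

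**Figure D2:**
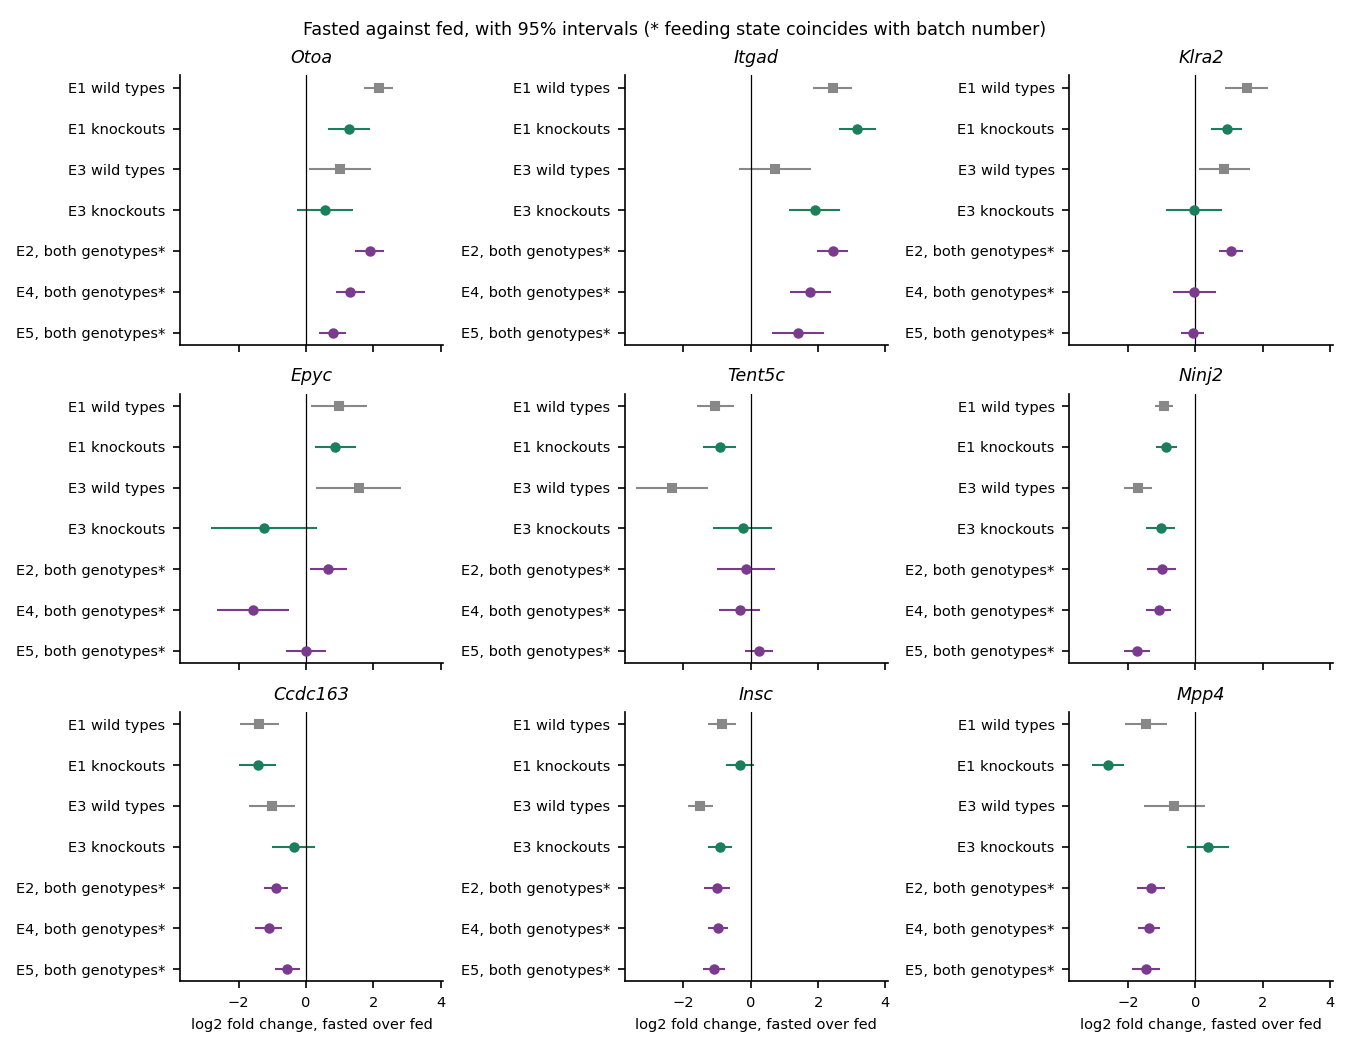
Log2 fold change of fasted over fed with its 95% interval for each of the 9 genes in each line and genotype of E1 and E3 and in each other line; grey squares are the wild types that chose the genes, and stars mark comparisons where feeding state and batch number coincide. In every comparison shown, the estimates of Otoa and Itgad lie above 0 and those of Ninj2, Ccdc163 and Insc below 0. The interval of Mpp4 in E3 KO, -0.25 to 1.0, stands apart from that in E1 KO, -3.09 to -2.12.

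Taken alone, fasting in E1 KO gave calls for 8 of the 9 genes, against 34.9% of all genes, with Insc the exception at -0.32 (SE 0.19, adjusted p = 0.201). Itgad rose by a log2 fold change of 3.17 (SE 0.25, adjusted p = 3.75e-05), Otoa by 1.27 (SE 0.28, adjusted p = 0.00556), Klra2 by 0.92 (SE 0.21, adjusted p = 0.00574) and Epyc by 0.88 (SE 0.27, adjusted p = 0.0281). Mpp4, Ccdc163, Tent5c and Ninj2 were at -2.61, -1.43, -0.93 and -0.87. Epyc lost its call without the first fasted E1 KO library or any fed one but the third (0.72 to 0.83, adjusted p = 0.0724 to 0.0843), and Insc gained one without the second fasted library (-0.55, adjusted p = 0.0148). In E3 KO, with 3 libraries a group, edgeR called 0 of the 9 genes and 0.505% of all genes. Of the 9, 3 had an unadjusted p under 0.05, and DESeq2 called those 3: Itgad at 1.90, Ninj2 at -1.03 and Insc at -0.91, with adjusted p of 0.0527, 0.0665 and 0.0527 in edgeR. Otoa was at 0.57, Klra2 at -0.04, Epyc at -1.25, Tent5c at -0.24 and Ccdc163 at -0.37, with adjusted p of 0.487 to 0.977.

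The difference of the fasting effect between E1 and E3 knockouts was tested as an interaction of line and feeding, and it was past the threshold for Mpp4 alone among the 9, against 6.85% of all 15246 genes. Mpp4 was 5.98, 4.59, 5.56 and 4.83 scaled CPM in fed E1 KO and 0.899, 0.526, 0.765 and 1.23 in fasted E1 KO. In E3 KO it was 1.34, 1.75 and 1.75 fed and 2.10, 1.76 and 2.38 fasted. The E1 groups were far apart, with the fasted libraries lower, whereas in E3 each fasted library lay above each fed one, the closest 2 by less than the rounding shown. The fold change on the log2 scale was -2.61 (SE 0.22, adjusted p = 4.87e-05) in E1 KO and 0.38 (SE 0.28, adjusted p = 0.606) in E3 KO, and the difference, E3 minus E1, was 2.97 (SE 0.34, adjusted p = 0.000317). Over both lines Mpp4 was at -1.34 (SE 0.41, adjusted p = 0.0313), a call lost without any 1 of the 8 E1 KO libraries (-1.10 to -1.29, adjusted p = 0.0586 to 0.0868).

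The wild types were used in the choice of the genes and are given as a description. Mpp4 in E1 WT was 4.89, 4.21, 3.59 and 4.80 scaled CPM fed and 1.02, 2.46 and 1.34 fasted, and in E3 WT it was 1.96, 3.4 and 2.53 fed and 0.913, 1.51 and 2.60 fasted. Every fed E3 library of either genotype was lower than every fed E1 library. For the other genes the difference between lines did not pass: Epyc was at -2.14 (adjusted p = 0.145), Itgad at -1.28 (adjusted p = 0.0924; called by DESeq2, adjusted p = 0.0346), Ccdc163 at 1.05 (adjusted p = 0.106) Klra2 at -0.98 (adjusted p = 0.147) and Insc at -0.61 (adjusted p = 0.189), all 5 with unadjusted p under 0.05. Otoa was at -0.71 (adjusted p = 0.389), Tent5c at 0.67 (adjusted p = 0.41) and Ninj2 at -0.17 (adjusted p = 0.71). Without the first fasted E3 KO library Epyc passed at -3.20 (adjusted p = 0.0227), and without the second Itgad passed at -1.71 (adjusted p = 0.0199).

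**Figure D3:**
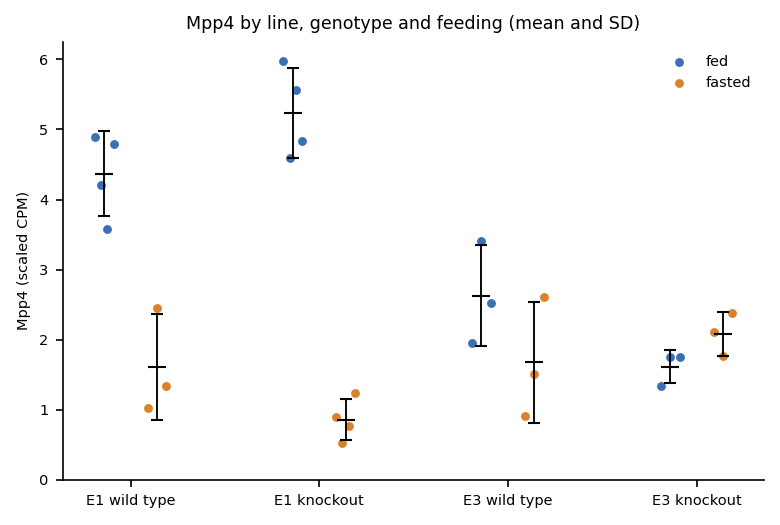
Mpp4 in scaled CPM in each library of the E1 and E3 lines, by genotype and feeding state, with the mean and SD of each group. Fed E1 KO libraries lie between 4.59 and 5.98 and fasted ones between 0.526 and 1.23, whereas in E3 KO both states lie between 1.34 and 2.38.

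In E2, E4 and E5 the fed and fasted mice carried different batch numbers, so the values that follow are of feeding state and batch together, with genotype as a covariate. Otoa, Itgad, Ninj2, Ccdc163, Insc and Mpp4 were called in each of the 3 lines, in the direction seen in the wild types that chose them. The counts were 7 of 9 in E2 (18.9% of all genes called), 7 in E4 (48.5%) and 6 in E5 (62.9%), so in E4 and E5 a call is common. The further gene in E2 was Klra2, higher as in those wild types. In E4 it was Epyc, lower at -1.57 and so opposite in sign to those wild types (1.33). Itgad had a log2 fold change of 2.44 (SE 0.22), 1.77 (SE 0.29) and 1.40 (SE 0.37) in E2, E4 and E5. Otoa was at 1.90, 1.32 and 0.79, each with an SE of 0.20. Mpp4 was at -1.32 (SE 0.20), -1.38 (SE 0.15) and -1.48 (SE 0.20). Ninj2 was at -1.01, -1.10 and -1.73, Insc at -1.0, -0.97 and -1.09, and Ccdc163 at -0.89, -1.10 and -0.55.

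Klra2 rose in E2 (1.05, SE 0.17, adjusted p = 0.00114) and was at -0.03 (SE 0.31, adjusted p = 0.94) in E4 and -0.09 (SE 0.17, adjusted p = 0.667) in E5. In E2 its levels were 1.60, 1.45, 1.31 and 1.73 scaled CPM in fed WT and 3.25, 2.46 and 2.97 in fasted WT, and 1.52, 1.48, 2.91 and 2.12 in fed KO and 4.56, 4.66 and 4.24 in fasted KO, with no overlap within a genotype. Epyc was at 0.67 (adjusted p = 0.0839), -1.57 (adjusted p = 0.016) and 0.01 (adjusted p = 0.98) in E2, E4 and E5, and was called in E4 alone. Tent5c was at -0.13, -0.33 and 0.25, with no call in any of the 3 lines. Epyc was called in E2 without the third fasted WT library (0.81, adjusted p = 0.0359) or the first fed WT library (0.79, adjusted p = 0.0353). Tent5c was called in E4 without the third fasted KO library (-0.67, adjusted p = 0.041) or without 3 libraries high in striatal transcripts (-0.65, adjusted p = 0.0251). Anterior pituitary transcripts, at most 199.4 scaled CPM in sum in the other libraries, reached 1300 to 11850 scaled CPM in the 3 fasted E2 WT libraries, 6588 in 1 fasted E4 KO library, and 19560 and 4591 in 1 fasted KO and 1 fasted WT library of E5. The same 7 genes were called in E2 and the same 6 in E5 without those E2 and E5 libraries, a check added after seeing the data. In that check the genes called over the whole table went from 3730 to 1213 in E2 and from 11821 to 11428 in E5. No fasted E2 WT library remained, so the feeding contrast in E2 then rested on the knockouts.

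Fasted E5 and fed E2 mice share a batch number, and there line and feeding state coincide in turn. The same 6 genes were called, against 28.7% of all genes: Itgad at 1.54 (SE 0.38, adjusted p = 0.00765), Otoa at 0.79 (SE 0.23, adjusted p = 0.0197), Mpp4 at -1.13 (SE 0.22, adjusted p = 0.00216), Ninj2 at -1.12 (SE 0.20, adjusted p = 0.00144), Insc at -0.88 (SE 0.15, adjusted p = 0.00092) and Ccdc163 at -0.74 (SE 0.18, adjusted p = 0.00722). Klra2 was at 0.01, Epyc at 0.33 and Tent5c at -0.51, none of them called. This comparison shares its libraries with those of E2 and E5 and is no independent count.

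Across the 10 pairs of line and genotype, 2 of which, E1 WT and E3 WT, chose the genes, all fasted libraries of Ninj2 lay below all fed ones in 10, those of Insc in 9, and those of Ccdc163 and Mpp4 in 8 each. Fasted libraries lay above fed ones in 7 pairs for Otoa, 6 for Itgad, 5 for Klra2 and 3 for Epyc. In E4 KO, Otoa and Itgad overlapped only through the first fasted library, at 1.57 and 2.20 scaled CPM. Tent5c was below in 2, both of them the wild types that chose the genes, Epyc below in 1 (E4 KO) and Mpp4 above in 1 (E3 KO). In pairs from E2, E4 and E5 the batch number changes together with feeding, so a gap there can belong to either. Of all genes, 18.9%, 48.5% and 62.9% were called in those lines. The share of all genes that separate in each pair was not counted. The mean of Ninj2 fell from 15.2 ± 4.74 scaled CPM (SD, n = 4) to 4.07 ± 1.57 (n = 4) in E5 WT, a ratio of 0.268, and from 11 ± 1.90 (n = 4) to 6.53 ± 2.16 (n = 3) in E2 WT, a ratio of 0.596, the ends of its range. The mean of Itgad was 1.24 ± 0.390 (n = 4) fed and 11.3 ± 2.87 (n = 4) fasted in E1 KO, a ratio of 9.12, and 2.18 ± 1.12 (n = 4) and 3.83 ± 1.38 (n = 4) in E5 KO, a ratio of 1.75, with a lower ratio of 1.65 in E3 WT.

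Tent5c and Epyc varied with markers of other cells. The 4 measured haemoglobin genes mark red cells. With fasting in E1 and E3 knockouts, 3 of the 4 were called lower (median log2 fold change -0.97). Of all genes, 20.1% were called there in either direction. The haemoglobin sum was 414.5 to 831.2 scaled CPM in fed and 185.9 to 415.4 in fasted E1 KO. In E3 KO the sum was low and overlapped between states, at 1.97, 0.85 and 4.32 fed and 0.87, 6.05 and 3.26 fasted. Within groups, Tent5c followed that sum with Pearson's r of 0.628 and Spearman's rho of 0.627 over 72 libraries, 0.572 and 0.597 without the 2 farthest, and r of 0.665, 0.567, 0.896, 0.642 and 0.267 in E1 to E5. Libraries share depth scaling, so these are descriptions. In fed E3 WT, Tent5c was 16.4, 9.01 and 39.3 scaled CPM and the haemoglobin sum 14.4, 5.55 and 36.6, high and low in the same libraries. The part of red cells in the Tent5c result was not tested.

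Epyc followed the summed striatal markers, 6 genes of medium spiny neurons, with r of 0.702 and rho of 0.557 over the 72 libraries, and r of 0.645 without the 2 farthest. By line, r was 0.889 in E3 and 0.825 in E4, and 0.488, -0.116 and 0.0537 in E1, E2 and E5. In fed E4 WT, Epyc was 1.06, 1.43, 0.962 and 8.12 scaled CPM, and the library with 8.12 had a striatal sum of 425.4 against 135.5 to 152.3 in the rest. The decrease of Epyc in E4 was not called without that library (-0.99, adjusted p = 0.0523) nor without the 3 E4 libraries high in striatal transcripts (-0.38, adjusted p = 0.299). In E3 KO the sum was 150.2 to 569.9 fed and 109.2 to 382.9 fasted, and leaving out 3 such libraries turned Epyc in E1 and E3 knockouts to 0.14 (adjusted p = 0.84). Insc and Ninj2 followed each other, with r of 0.594 over 72 libraries and 0.515, 0.753, 0.903, 0.52 and 0.528 in E1 to E5.

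**Figure D4:**
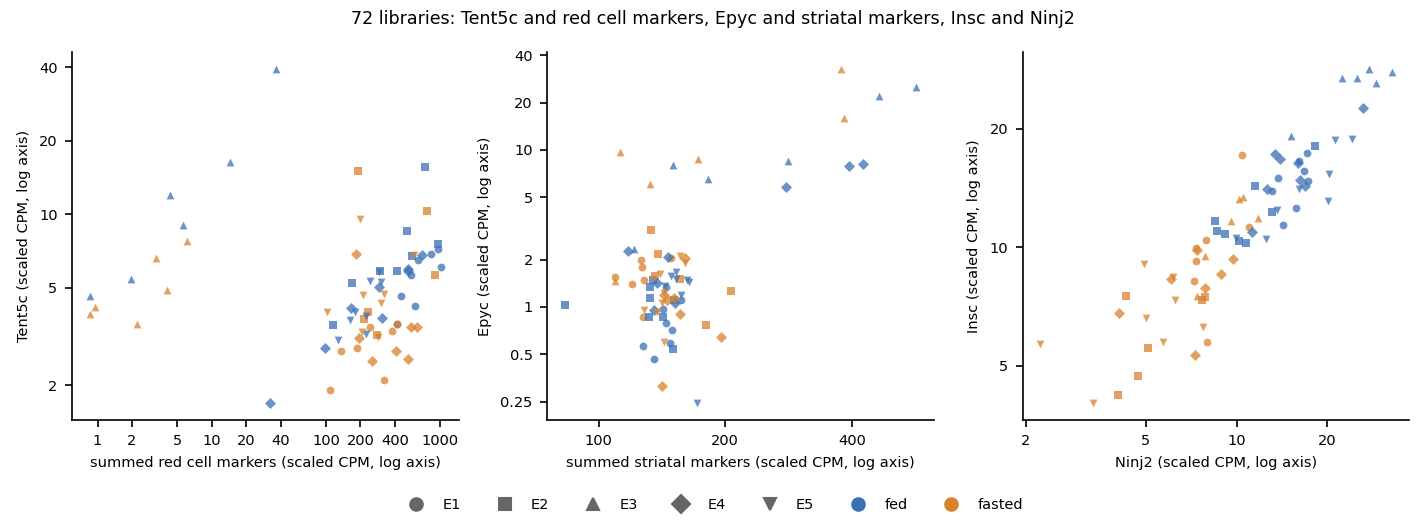
Scaled CPM (log axes) in each of the 72 libraries of Tent5c against summed haemoglobin genes, Epyc against summed striatal markers, and Insc against Ninj2, with 1 marker shape a line and colours for feeding state. Epyc is high where striatal markers are high in E3 and E4, as in the E4 library at 8.12 and 425.4, and Insc and Ninj2 shift down together in fasted libraries.

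The known relatives and partners of the 9 genes were followed with fasting in E1 and E3 knockouts, in lists chosen with earlier results known. The counts that follow stand beside the 20.1% of all genes called in this comparison, and shares near it are no result about a list. Of 8 tested genes of inner ear matrix, 2 rose: Otoa and Tecta, the alpha tectorin gene of the tectorial membrane, at 0.96 (SE 0.28, adjusted p = 0.0245). Of 7 beta2 integrins and partners, Itgad alone was called. Of 3 tested genes of Ly49 receptors and the natural killer complex, Klra2 among them, none was called by edgeR (median log2 fold change 0.08). Nor was any of 8 small leucine-rich proteoglycans, Epyc among them (median log2 fold change -0.02). Of 7 genes of ninjurins and lytic cell death, Ninj2 alone was called. Its paralogue Ninj1, which drives membrane rupture in dying cells, was at 0.16 (SE 0.10, adjusted p = 0.268).

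Among 13 tested noncanonical poly(A) polymerases and their partners, 3 fell by small amounts: Fndc3b, a membrane partner of this family, at -0.47 (adjusted p = 0.00686), and the polymerase and uridylyltransferase genes Tent4a and Tut4 at -0.20 each (adjusted p = 0.0409 and 0.0353). Of 14 genes of spindle orientation, Insc, Pard3 (-0.48, adjusted p = 0.00577) and Numa1 (-0.29, adjusted p = 0.0123) fell and Pard6a (0.46, adjusted p = 0.0132) rose; Pard3 and Pard6a encode Par polarity proteins and Numa1 a spindle pole protein. Of 14 genes of the Mpp family and its partners, Mpp4 and Pals1, an epithelial polarity scaffold at -0.27 (adjusted p = 0.00434), fell. Markers of mature oligodendrocytes were called higher in 2 of 8, Mbp at 0.48 and Mobp at 0.60, beside 20.1% of all genes called. For reference, 16 of 18 tested glucocorticoid and fasting targets rose (median 0.99), among them Sgk1 at 1.16, Fkbp5 at 0.95 and Tsc22d3 at 0.60. Npy rose by 0.92 (adjusted p = 0.0085), and Agrp was at -0.38 (adjusted p = 0.0916).

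The genes whose pattern was most like each of the 9 were ranked by Pearson's r of log2 CPM among 14078 genes. With each of the 20 groups centred on its mean, over 72 libraries, Ninj2 was most like Prr5l (0.823), St18 (0.815) and Gm1979 (0.783), and Insc like Sec14l5 (0.711) and St18 (0.706). Epyc was most like Akap5 (0.731), Adora2a (0.721), a striatal adenosine receptor gene that is among the markers above, and Gng7 (0.719). The other 6 had no gene at 0.7 or more. Centred on line only, so that fasting itself enters, the nearest genes over the 27 E1 and E3 libraries were Gabrr2 (0.949) for Itgad, Eif4b (0.84) for Otoa, Orc6 (0.83) for Klra2, Neto1 (0.85) for Epyc and Hba-a1 (0.906) for Tent5c. There Ninj2 was nearest to Frmd4b (0.936), Insc to Gab1 (0.921), Ccdc163 to Atpsckmt (0.899) and Mpp4 to Lman2l (0.878). Itgad was also near Arrdc2 (0.927), a fasting target. These 27 libraries include the E1 and E3 wild types in which the genes were chosen. Closeness to other genes that change with fasting therefore follows in part from that choice.

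The study compared knockout with wild type in each line and feeding state, and edgeR called 0 of the 9 genes in all 10 comparisons, where it called 0% of all genes. Up to 2546 of all genes had an unadjusted p under 0.05 in 1 comparison (fasted E3), while DESeq2 called 0 to 527 genes but 0 of the 9. Of 90 values, 15 had an unadjusted p under 0.05, and the other 75 had log2 fold changes of -1.14 to 0.72. Fed E3 held 5 of the 15: Epyc at 1.65 (adjusted p = 0.374), Otoa at 0.95 (adjusted p = 0.482), Tent5c at -1.57 (adjusted p = 0.423), Mpp4 at -0.70 (adjusted p = 0.508) and Ninj2 at -0.53 (adjusted p = 0.407). Fasted E2 held 4, Epyc at 0.95 (adjusted p = 0.66), Klra2 at 0.63 (adjusted p = 0.66), Ccdc163 at -0.70 (adjusted p = 0.66) and Tent5c at -1.18 (adjusted p = 0.661). Every fasted E2 WT library and no fasted E2 KO library was high in pituitary transcripts, so genotype and that tissue cannot be told apart there. Fasted E5 held Itgad at -1.09 (adjusted p = 0.678), Ninj2 at 0.61 (adjusted p = 0.667) and Insc at 0.50 (adjusted p = 0.667). The rest were Itgad at 1.27 in fasted E3 (adjusted p = 0.249), Mpp4 at -0.88 in fasted E1 (adjusted p = 0.954) and Otoa at 0.52 in fed E1 (adjusted p = 0.953). In the authors' deposited tables, which cover 8 of the comparisons and give WT over KO, 13 of 72 values for these genes had p under 0.05, and every adjusted p was 1.

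Whether the fasting effect differed between genotypes was tested as an interaction in each line. It was called for 0 of the 9 genes in every line by edgeR and by DESeq2, with 0% of all genes called in E1, E2, E4 and E5 and 1.34% in E3. Where edgeR called none, 1150 to 2168 genes passed an unadjusted p of 0.05 and DESeq2 called 0 to 22. Of 45 values 8 had an unadjusted p under 0.05, KO minus WT: in E1 Mpp4 at -1.14 (adjusted p = 0.596) and Otoa at -0.89 (adjusted p = 0.596), in E2 Tent5c at -1.67 (adjusted p = 0.762) and Ccdc163 at -0.67 (adjusted p = 0.762), and in E3 Epyc at -2.78 (adjusted p = 0.15), Tent5c at 2.12 (adjusted p = 0.114), Ninj2 at 0.70 (adjusted p = 0.182) and Insc at 0.61 (adjusted p = 0.173). The other 37 lay between -1.10 and 1.21. In E2 the fasted WT libraries alone were high in pituitary transcripts, so the interaction and that tissue cannot be told apart. In E1 and E3 these values and the genotype values use the wild types in which the genes were chosen, and are not independent of that choice.

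**Figure D5:**
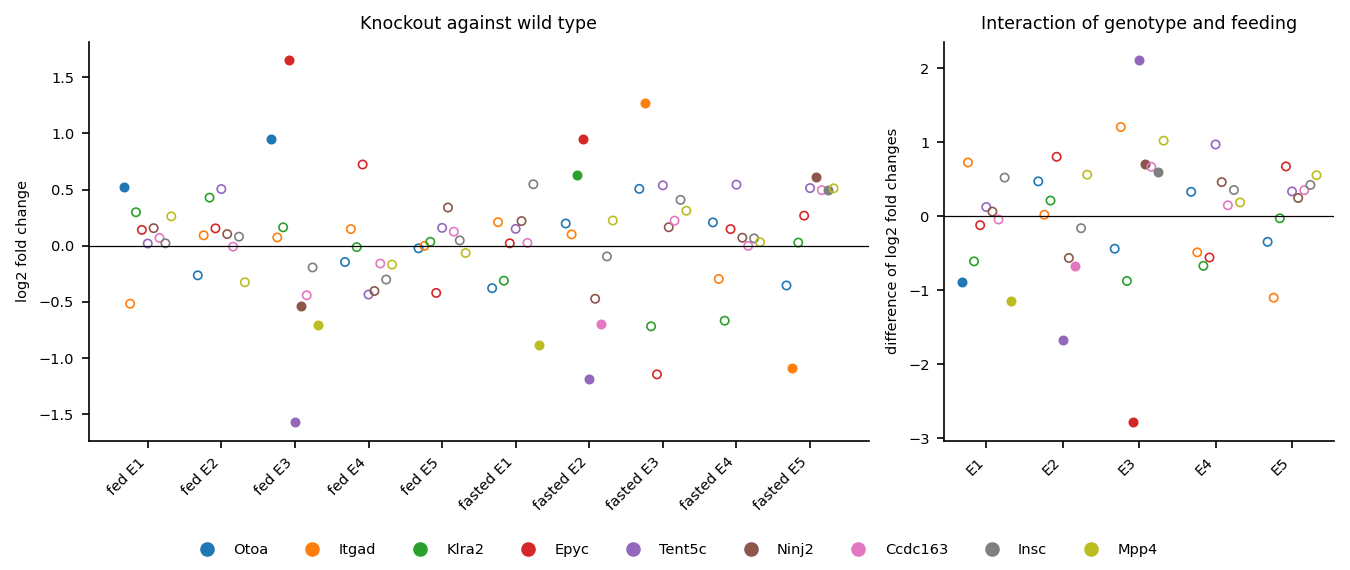
Log2 fold change of KO over WT in each line and feeding state (left) and the interaction of genotype and feeding in each line (right) for the 9 genes, with filled points for an unadjusted p up to 0.05. No point was called after adjustment, and the values farthest from 0 are those of Epyc and Tent5c in E3, where the interactions were -2.78 and 2.12.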

How the data were processed

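Hypothalamus RNA of 72 mouse libraries was analysed from 10 tables of raw counts per gene. The authors deposited these counts. HISAT2, Bowtie2, edgeR and the build mm10 are named in the submitters' processing notes without versions, and the counting tool and strand setting are not given in the sources used here. The authors' deposited tables of log2 fold changes and p-values, per the file headers WT over KO, were used only where named. Not every gene that overlaps a member is reported here.

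Groups came from the sample titles. The members and lists were chosen with earlier results of these data known. All 9 genes are named in the fasting comparisons, and in genotype comparisons and interactions those with an unadjusted p under 0.05, the others as a range. Rows were matched to symbols by the names paired with Ensembl IDs in the deposited tables.

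Counts were tested in R 4.3.3 with edgeR 4.0.16: TMM factors, filterByExpr (minimum count 10, minimum total 15), quasi-likelihood fits and Benjamini-Hochberg adjustment over all genes tested, with a call at 0.05. Line was a covariate for E1 and E3, and genotype for E2, E4 and E5. An SE is the absolute log2 fold change divided by the square root of F. Correlations with marker sums were taken with each group centred on its mean.

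Alternatives were DESeq2 1.42.0, RLE factors, no filter on low counts, each library left out, sets of libraries left out and a replicate block. No 2 of the 96 library pairs within groups differed by as little as sampling noise (chi-square per degree of freedom 2.88 to 533). On simulated counts, the test of E1 and E3 knockouts called 91% of genes changed by a log2 of 1 and 100% of those changed by 2 (14856 genes), and that of E3 knockouts called 73.7% and 95% (14541 genes). Unchanged genes called numbered 9 and 15. The changed genes were drawn at random from all levels, so these shares need not hold for the 9 genes at their low counts.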

Additional observations from a re-analysis of the deposited data

Results flagged for a closer look

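The fasting effect on Mpp4 differed between E1 and E3 knockouts by 2.967 on the log2 scale, tested as an interaction (edgeR adjusted p = 0.000317). Line, sex and batch number coincide in that comparison and cannot be told apart.

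In 6 of 108 tests of a gene in a group of 4, 1 library stood far from the other 3 by Dixon's test, which chance does in about 1 of 20 such groups. Epyc was 8.123 scaled CPM in the fourth fed E4 WT library against 0.9615 to 1.429 in the others. The second fed E2 KO library was high for both Ninj2, at 18.25 against 8.604 to 10.17, and Insc, at 18.11 against 10.38 to 11.02. Otoa was 2.338 in the second fed E2 WT library against 1.359 to 1.451. Lower than their groups were Ninj2 at 14.29 in the third fed E1 KO library, against 16.78 to 17.25, and Mpp4 at 2.42 in the third fed E2 KO library, against 3.54 to 3.595.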

How the results depend on the processing

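Over the alternatives of the tested comparisons, 323 counts of called genes among the 9 stayed within 1.5 times the value reported and 6 did not. In E3 knockouts the count of 0 became 3 with DESeq2 and 3 with no filter on low counts. For the difference between E1 and E3 knockouts the count of 1 became 2 with DESeq2, and leaving out single libraries gave 1 to 2. In fasted E2, knockout against wild type gave 0 to 1 when single libraries were left out (1 without the third fasted WT library). Of single-gene values in these comparisons, 1154 kept their direction and side of the threshold, 26 changed sign, 20 gained and 15 lost a call. Sign changes on leaving out single libraries were those of Klra2 (-0.38 to 0.22) and Tent5c (-0.51 to 0.31) in E3 knockouts, Tent5c in E2 (-0.44 to 0.13, and -1.0 without 3 libraries high in pituitary transcripts), Klra2 in E4 (-0.23 to 0.15), Epyc in E5 (-0.15 to 0.12) and Klra2 in fasted E5 against fed E2 (-0.0694 to 0.137). Epyc also changed sign in E1 and E3 knockouts without 3 libraries high in striatal transcripts (0.14), and in E5 without 2 high in pituitary transcripts (-0.15). The causes were not tested. Itgad in wild types was 1.15 without 3 libraries holding other tissue, against 1.69, and the call count over all genes there fell from 1637 to 30.

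Replicate numbers gave no regular pairing of the samples. Same-numbered fed and fasted libraries correlated at 0.125, -0.331 and -0.0289 in E3 knockouts and at -0.236, -0.186 and 0.0552 in E3 wild types. Between genotypes the values were 0.0744 to 0.215 in fasted E3 and -0.0846 to 0.0541 in fed E3. They were -0.106 to 0.285 in fed E4 and -0.292 to 0.502 in fed E5. With the replicate number as a block, 0 of the 9 genes were called in every blocked comparison, as without it. Over all genes the block moved calls for fasting in E3 knockouts from 74 to 19, for the E3 interaction from 1.34% of genes to 0 and for fed E3 from 0 to 1. Low counts, down to 1 for Epyc and 3 for Ccdc163 in the first fasted E4 KO library, limit the precision of single values.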
